A study of Mus musculus with 14 samples.

Results

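Transcription factors that set or carry out secretory cell fate in the intestine were measured through 8 genes, out of 12393 genes with a probe set named for a single gene. The members were Atoh1, Gfi1, Spdef, Neurog3, Neurod1, Insm1, Pax6 and Isl1, and a probe set counted as theirs when it was annotated to exactly 1 of these symbols. That gave 15 probe sets: 5 for Pax6, 2 each for Neurog3, Neurod1 and Isl1, and 1 for each of the other 4 genes. RNA came from mouse small intestine and was read on oligonucleotide arrays. Crypts and villi were isolated from C57BL/6 mice aged 12 weeks, with 3 arrays each, titled K12, K21 and K41 for crypts and V12, V41 and V275 for villi. Endoderm and mesenchyme were dissected from collagenase-treated intestine at embryonic day 12 (E12), with 4 arrays each, and no transgene or treatment is recorded for any group. An 8-array table held the adult samples and 1 E12 pair pooled from 35 fetuses. A separate table held the other 6 E12 arrays, each from a pool of 10 to 12 fetuses, and levels were not compared across the tables.

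The intestinal epithelium renews from stem cells in the crypts, the pockets between the villi, and its daughter cells become either absorptive enterocytes or secretory cells. Secretory cells are goblet cells, which make mucus, Paneth cells, which stay at the crypt base and release antimicrobial proteins, and enteroendocrine cells, which release hormones. Notch signalling between neighbouring cells keeps Atoh1 off in most progenitors, and cells that escape it switch on Atoh1 and enter the secretory lineage. Gfi1 and Spdef act after Atoh1 in goblet and Paneth cells, whereas Neurog3 starts the enteroendocrine fate and is followed by Neurod1, Insm1, Pax6 and Isl1.

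Promoter sequence is shown for Atoh1 and Spdef, which were higher in crypt, and for Neurog3 and Isl1, picked because their windows hold the hexamer CAGCTG. Each window is the 250 bases before the transcription start in the RefSeq table of build GRCm38.p6, given 5′ to 3′ on the gene's own strand. Capitals mark CANNTG, the E-box pattern that basic helix-loop-helix factors such as Atoh1, Neurog3 and Neurod1 bind. Atoh1 lies on the plus strand at chr6:64728875-64729124, Spdef on the minus strand at chr17:27728952-27729201, Neurog3 on the plus strand at chr10:62132840-62133089 and Isl1 on the minus strand at chr13:116309689-116309938.
Atoh1: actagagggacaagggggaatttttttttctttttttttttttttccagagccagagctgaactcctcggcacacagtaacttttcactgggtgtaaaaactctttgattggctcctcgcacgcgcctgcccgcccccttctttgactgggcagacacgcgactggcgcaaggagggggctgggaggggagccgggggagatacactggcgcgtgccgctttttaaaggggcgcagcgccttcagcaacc
Spdef: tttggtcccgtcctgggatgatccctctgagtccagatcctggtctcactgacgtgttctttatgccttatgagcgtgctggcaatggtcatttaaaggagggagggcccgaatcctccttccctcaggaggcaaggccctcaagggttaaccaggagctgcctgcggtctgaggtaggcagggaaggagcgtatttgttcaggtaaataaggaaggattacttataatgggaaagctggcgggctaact
Neurog3: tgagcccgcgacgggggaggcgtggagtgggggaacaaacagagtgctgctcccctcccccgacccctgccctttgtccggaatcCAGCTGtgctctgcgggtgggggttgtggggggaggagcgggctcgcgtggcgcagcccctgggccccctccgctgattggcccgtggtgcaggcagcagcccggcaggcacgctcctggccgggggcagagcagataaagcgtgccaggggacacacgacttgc
Isl1: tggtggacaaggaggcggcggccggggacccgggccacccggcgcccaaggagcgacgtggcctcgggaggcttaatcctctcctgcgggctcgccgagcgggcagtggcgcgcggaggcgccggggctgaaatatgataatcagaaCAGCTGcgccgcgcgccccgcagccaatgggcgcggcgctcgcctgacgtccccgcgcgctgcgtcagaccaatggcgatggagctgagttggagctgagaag
The table gave 9 windows for 7 of the members, with 2 starts each for Gfi1 and Pax6, and Insm1 is named only. CANNTG, searched on both strands, occurred in 6 of the 9 windows, against 66.2% of all 32841 windows of the same length. CAGCTG, which is contained in CANNTG, occurred in 2 of the 9, against 13% of all windows. CAGATG, likewise contained in it, occurred in 0 of the 9, against 14.4%. CACNAG, the N-box pattern of Hes repressors, occurred in 1 of the 9, a Pax6 window, against 36.7%. Atoh1 and Spdef had no CANNTG in these 250 bases, which says nothing about binding elsewhere.

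All values below are log2 signals. The 30th percentile of an array, taken as the level below which a probe set is dim, lay between 5.71 and 5.88 in the 8-array table and between 4.70 and 4.78 in the E12 table. Where a gene was dim on every array of a group, the fold is given as a bound ("at least"), with the higher of that percentile and the gene's own signal standing for the dim group. Medians of lists use the measured differences. The tissue labels were checked with marker genes in the comparison of crypt with villus. All 5 crypt markers (Mki67, Top2a, Lgr5, Lyz1 and Mmp7) were higher in crypt and all 5 villus markers (Lct, Apoa4, Fabp1, Vil1 and Ada) were lower there. Between the E12 layers all 12 epithelial markers were higher in endoderm, led by Cldn7 and Cdh1. Of 13 mesenchymal markers tested, 12 were lower in endoderm, led by Actg2 and Col1a1. Over all genes, 27.7% were called higher in endoderm and 25.4% lower. Vil1, Foxa3 and Cdx1 were dim in E12 mesenchyme, Twist1 in E12 endoderm and Lct in crypt. Their direction there follows from the filter on dim genes. Intraepithelial T cell genes differed between the adult groups: 12 of 13 tested were lower in crypt, led by Gzma at -4.35 and Ccl5 at -3.58. Of all genes tested there, 16.9% were called lower in crypt and 15.0% higher. Cd3g, Klrd1 and Cd247 were dim in every crypt array, so their direction follows from the filter. The mean over 15 T cell genes was 6.43 to 6.55 in crypt arrays and 7.87 to 8.60 in villus arrays, and its part in the results below was not tested.

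In adult tissue, Atoh1 and Spdef were higher in crypt than in villus, by 2.25-fold and 2.63-fold. Neurog3 was higher in every crypt array than in every villus array but missed the threshold. Neurod1, Pax6 and Isl1 did not pass the test, and Gfi1 and Insm1 were too dim to be tested. Of the 6 members tested, 2 were called higher and 0 lower, where 15.0% of all 9961 genes tested were called higher and 16.9% lower. At an unadjusted p under 0.05, 3 of the 6 passed, all higher in crypt, beside 42.3% of all genes in either direction. The arrays of crypt and villus did not overlap for these same 3, Atoh1, Spdef and Neurog3, all higher in crypt, where 23.5% of all genes were higher without overlap and 24.3% lower. The median difference of the 6 was 0.55, against 0.00 over all genes tested. Samples are whole crypts or villi, so fewer cells of a type and less RNA per cell cannot be told apart.

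Atoh1 (probe set 1449822_at), the factor without which no secretory cell forms, read 10.85, 10.32 and 9.95 in crypts K12, K21 and K41. Its signal in villi V12, V41 and V275 was 9.14, 9.45 and 9.01. Every crypt array was above every villus array, and both groups were far above the dim level. The means were 10.37 ± 0.45 in crypt and 9.20 ± 0.22 in villus (SD, n = 3 each), a log2 difference of 1.17 ± 0.24 (SE) with an adjusted p of 0.00941 by limma. The call was lost with the replicate numbers of the titles as a block (difference 1.10, adjusted p = 0.112). Only the numbers 12 and 41 occur in both groups, so the difference in that fit rests on these arrays alone. Over all genes, calls fell from 3182 to 1259 with the block. The labels do not say whether a shared number marks the same mouse.

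Spdef (1450220_a_at), an ETS factor for the maturation of goblet and Paneth cells, read 9.17, 8.79 and 8.47 in crypts K12, K21 and K41. In villi V12, V41 and V275 it read 7.82, 7.18 and 7.25. The groups did not overlap, and the lowest crypt array was above the highest villus array. Means were 8.81 ± 0.35 in crypt and 7.42 ± 0.35 in villus, and the log2 difference was 1.39 ± 0.24 with a limma adjusted p of 0.00442. Villus V12, the highest for Spdef, also had the highest mean over the Paneth product list, 8.95 against 7.64 in V41 and 8.09 in V275, and its part in the Spdef difference was not tested. Without villus V12, Spdef was 1.59 higher in crypt (adjusted p = 0.0026). The Spdef probe set is of a type whose probes match several transcripts of the same gene, and without probe sets of shared types the gene was not tested.

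Gfi1 (1417679_at), a zinc finger repressor that favours goblet and Paneth over enteroendocrine fate, read 6.42, 6.24 and 5.60 in crypts K12, K21 and K41, against 5.08, 5.12 and 5.31 in villi V12, V41 and V275. Only crypt replicates 12 and 21 were above the dim level, so Gfi1 stayed out of the fit. The difference of means was 0.92, and it had an adjusted p of 0.0208 when limma was run on all genes with no filter. RMA compresses differences near the bottom of the range, so the size of the Gfi1 difference is uncertain.

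Neurog3, the factor that starts enteroendocrine fate, has a pair of probe sets. Its brighter set (1432034_at) read 7.47, 6.79 and 6.56 in crypts K12, K21 and K41. The same set read 6.47, 6.17 and 6.25 in villi V12, V41 and V275. The groups did not overlap, though crypt K41 was only just above villus V12. The difference was 0.64 (95% interval 0.08 to 1.20), with an adjusted p of 0.0798 by limma. It was 0.38 without crypt K12 (adjusted p = 0.158) and 0.83 without crypt K41 (adjusted p = 0.0455). The dimmer Neurog3 set (1422312_a_at) lay below the dim level on every array, at 4.92 to 5.24 in crypt and 4.52 to 4.66 in villus.

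Of the later endocrine factors, none tested passed the threshold between crypt and villus. Neurod1 (1426413_at), the helix-loop-helix factor after Neurog3, read 7.08, 6.82 and 6.61 in crypt and 7.03, 6.91 and 6.66 in villus. Its groups overlapped almost completely, and the difference of -0.03 had a 95% interval of -0.43 to 0.38 (adjusted p = 0.921). Pax6 (1456342_at), a paired homeodomain factor for hormone genes such as glucagon, spanned 6.83 to 7.02 in crypt and 6.84 to 6.92 in villus. The Pax6 difference was 0.01, with a 95% interval of -0.30 to 0.31 (adjusted p = 0.98), and its other 4 probe sets were all below the dim level in both groups.

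Isl1, a LIM homeodomain factor of hormone-producing cells, read 7.50, 6.65 and 6.68 with its brighter set (1422720_at) in crypts K12, K21 and K41. In villi V12, V41 and V275 the set read 6.70, 6.29 and 6.44. Crypt K12 stood apart while the other crypt arrays overlapped the villus arrays. The difference was 0.47 (95% interval -0.12 to 1.05, adjusted p = 0.202), and 0.19 without crypt K12. The other Isl1 set (1450723_at) gave 0.12, with an adjusted p of 0.622 in the fit of all probe sets.

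Insm1 (1421399_at), a zinc finger repressor of endocrine and neuronal progenitors, read 6.29, 5.73 and 5.71 in crypts K12, K21 and K41, against 5.71, 5.67 and 5.90 in villi V12, V41 and V275. The groups overlapped, and 1 array of each was above the dim level. Crypt K12 was the highest of the 3 crypts for all 7 members tested in the fit of the 8 arrays, with a median deviation of 0.38 from the crypt mean. The matching deviations were -0.07 for crypt K21 and -0.26 for crypt K41. Villus V12 was the highest of the 3 villi for 5 of the 7, with a median deviation of 0.16. Without crypt K12, Atoh1 was 0.93 higher in crypt (adjusted p = 0.027) and Spdef 1.22 higher (adjusted p = 0.0218).

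**Figure D1:**
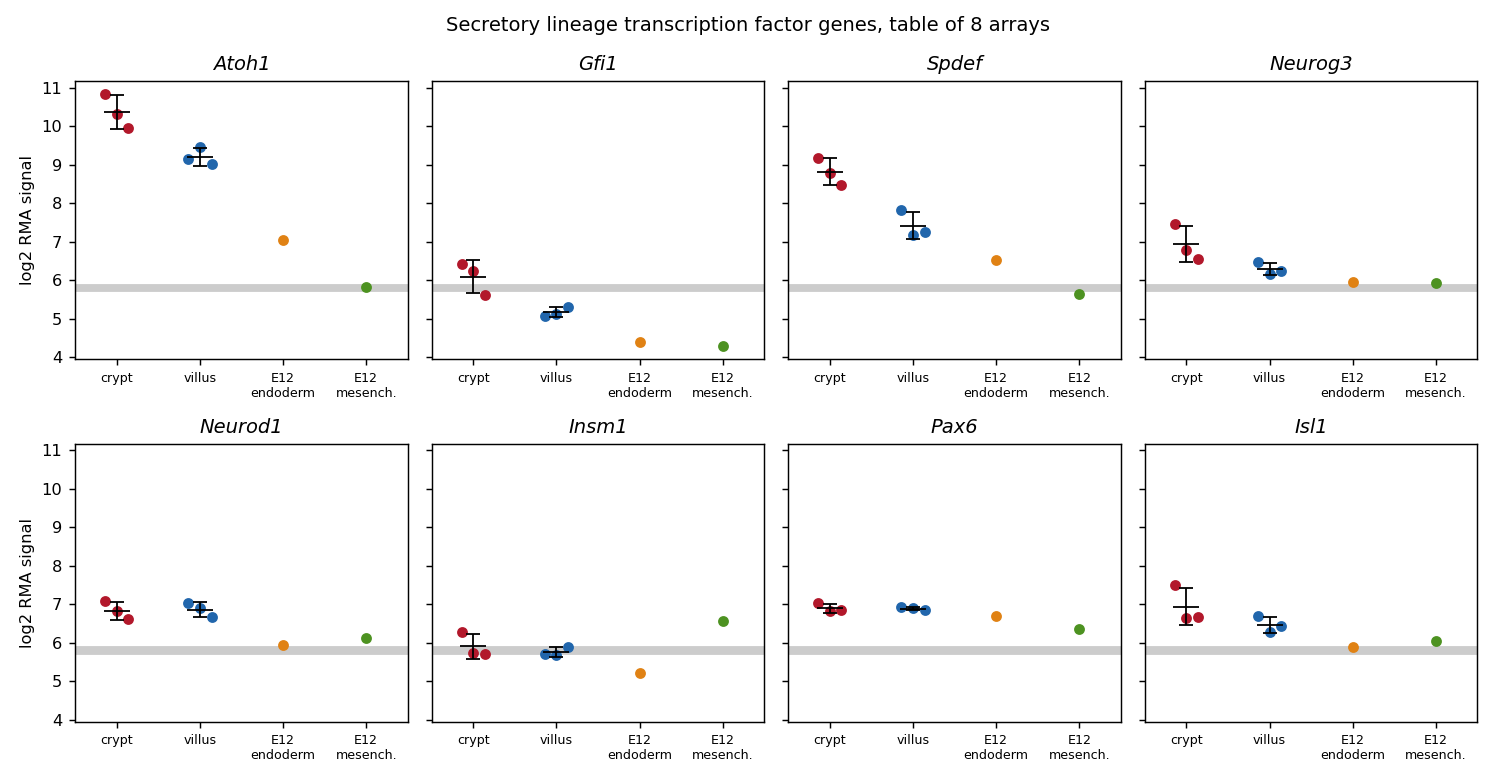
Log2 RMA signal (y axis) of each gene's brightest probe set in the 8-array table, by group (x axis); points are arrays, and horizontal lines with bars are the mean and SD of the 3 crypt or 3 villus arrays. The grey band is the range of the arrays' 30th percentiles, 5.71 to 5.88. The Atoh1 points run from 10.85 in a crypt array down to 5.83 in E12 mesenchyme, while the Pax6 points span 6.37 to 7.02.

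Both adult groups were then set against E12 endoderm, the embryonic layer that forms the epithelium, taken before most secretory cells appear. Both comparisons use the same lone E12 endoderm array, whose spread is assumed to equal that of the adult groups, so the E12 side has no replicate check of its own. Atoh1 and Neurod1 were higher in crypt and in villus than in E12 endoderm, and Spdef passed the threshold in crypt. In crypt, 3 of 7 members tested were called higher and 0 lower, where 8.20% of 10081 genes were called higher and 15.1% lower. In villus, 2 of 7 were called higher and 0 lower, where 17.0% were higher and 22.1% lower. At an unadjusted p under 0.05 the limma fit passed 6 of the 7 in crypt, beside 38.6% of all genes, and 3 of the 7 in villus, beside 49.0%, all of them higher in the adult tissue. Median differences over the 7 members were 0.98 for crypt and 0.57 for villus, against 0.05 and 0.13 over all genes. Insm1 was dim in the E12 endoderm array and passed the filter through other arrays, so its direction follows in part from the filter.

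Atoh1 spanned 9.95 to 10.85 in crypt and 9.01 to 9.45 in villus, against 7.06 in the E12 endoderm array. Every adult array was above it, and the E12 mesenchyme array of the same table was lower still at 5.83. Atoh1 was 9.95-fold higher in crypt than in E12 endoderm, a log2 difference of 3.31 ± 0.34 (SE) with a limma adjusted p of 0.000804. In villus it was 4.43-fold higher, a difference of 2.15 with an adjusted p of 0.00215.

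Spdef spanned 8.47 to 9.17 in crypt and 7.18 to 7.82 in villus, against 6.53 in E12 endoderm. All 6 adult arrays were above the E12 endoderm array, and E12 mesenchyme read 5.64. Spdef was 4.87-fold higher in crypt than in E12 endoderm, a difference of 2.28 ± 0.34 with an adjusted p of 0.00348 by limma. In villus the difference was 0.89 with an adjusted p of 0.0719, and 1.01 with an adjusted p of 0.0458 without villus V41. Gfi1 averaged 6.09 in crypt and 5.17 in villus, against 4.39 in E12 endoderm, where it was below the dim level. It was not tested, and its difference was 1.70 in crypt and 0.78 in villus.

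Neurod1 spanned 6.61 to 7.08 in crypt and 6.66 to 7.03 in villus, against 5.96 in E12 endoderm. That reading was close to the dim level of its array, 5.71, so the size of the folds is uncertain. All 6 adult arrays were above the E12 endoderm array. Neurod1 was 1.84-fold higher in crypt, a difference of 0.88 ± 0.25 with an adjusted p of 0.0378 by limma, and 1.88-fold higher in villus, a difference of 0.91 with an adjusted p of 0.0216. The crypt call was lost without crypt K12 (adjusted p = 0.0755) and without crypt K21 (adjusted p = 0.0951). The dimmer Neurod1 set (1426412_at) averaged 5.58 in crypt and 5.70 in villus, against 4.36 in E12 endoderm, and was too dim to be tested.

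Neurog3, Isl1, Insm1 and Pax6 were not called in either adult group against E12 endoderm. Neurog3 averaged 6.94 in crypt and 6.29 in villus, against 5.96 in E12 endoderm, with a difference of 0.98 in crypt (adjusted p = 0.0745) and 0.34 in villus (adjusted p = 0.45). The Neurog3 difference in crypt reached an adjusted p of 0.0449 without crypt K41. Isl1 averaged 6.94 in crypt and 6.48 in villus, against 5.91 in E12 endoderm, with a difference of 1.04 in crypt (adjusted p = 0.0715) and 0.57 in villus (adjusted p = 0.232). Its other probe set gave 0.78 in crypt and passed the threshold in the fit of all probe sets (adjusted p = 0.0468), so the Isl1 sets disagree on the call.

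Insm1 averaged 5.91 in crypt and 5.76 in villus, against 5.23 in E12 endoderm, which is below the dim level, with differences of 0.69 in crypt (adjusted p = 0.104) and 0.54 in villus (adjusted p = 0.152). Pax6 averaged 6.90 in crypt and 6.89 in villus, against 6.71 in E12 endoderm, a difference of 0.19 in both (adjusted p = 0.472 in crypt and 0.443 in villus). On simulated data this comparison of 10081 genes recovered 18% of 2-fold changes in crypt and 17% in villus, so a missed threshold here says little about changes of that size.

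Between the E12 layers, Spdef was higher in endoderm than in mesenchyme, by at least 1.69-fold, and Insm1 and Isl1 were lower in endoderm, Isl1 by at least 1.70-fold. Atoh1, Gfi1, Neurog3, Neurod1 and Pax6 were too dim in the E12 table to be tested. Of 3 members tested, 1 was called higher and 2 lower, where 27.7% of 9441 genes were called higher and 25.4% lower. Spdef and Isl1 passed the filter through 1 layer alone, so the direction and lack of overlap of their differences follow from the filter. Their p-values are not given, and these counts are a description only.

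Spdef read 5.62, 5.53 and 5.39 in endoderm replicates 2, 3 and 4. Its mesenchyme values were 4.20, 4.47 and 4.33, all below the dim level of 4.74. The layers did not overlap, which follows from the filter, and the measured difference, against background signal in mesenchyme, was 1.18 ± 0.11 (SE). The E12 pair in the 8-array table differed by 0.89 in the same direction, from 1 array a layer.

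Insm1 read 4.84, 4.96 and 4.71 in endoderm, at about the dim level. In mesenchyme replicates 2, 3 and 4 it read 6.13, 6.23 and 6.13, more than 1 log2 unit above every endoderm array. Its difference was -1.33 ± 0.10 with an adjusted p of 7.17e-06 by limma, or 2.51-fold lower in endoderm. The pair in the 8-array table gave -1.35, and its mesenchyme array, at 6.58, was the highest Insm1 reading of the 8.

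Isl1 read 4.70, 4.57 and 4.65 with 1422720_at in endoderm, against 5.24, 5.56 and 5.67 in mesenchyme. The measured difference was -0.85 ± 0.12 (SE). The other Isl1 set (1450723_at) read 3.63, 3.77 and 3.61 in endoderm and 4.88, 5.86 and 5.60 in mesenchyme, a difference of -1.78. Both sets were below the dim level in every endoderm array, so the bounds are at least 1.70-fold and at least 1.65-fold lower in endoderm. In the pair of the 8-array table they differed by -0.14 and -0.38, the same direction but smaller.

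Atoh1, the member with the largest difference between crypt and E12 endoderm, was near background in the E12 table. It read 5.03, 4.54 and 4.78 in endoderm and 4.46, 4.58 and 4.47 in mesenchyme, so 2 endoderm arrays were above the dim level and the layers overlapped. The E12 pair of the 8-array table differed by 1.22 for Atoh1, from 35 pooled fetuses, against a mean difference of 0.28 here. Pax6 (1456342_at) read 4.81, 4.65 and 4.52 in endoderm and 4.19, 4.40 and 4.40 in mesenchyme without overlap. Its untested difference of 0.33 had an adjusted p of 0.0358 when limma was run with no filter, and the pair gave the same 0.33. Gfi1, Neurog3 and Neurod1 were below the dim level on all 6 arrays, with differences of -0.04, -0.29 and -0.08.

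**Figure D2:**
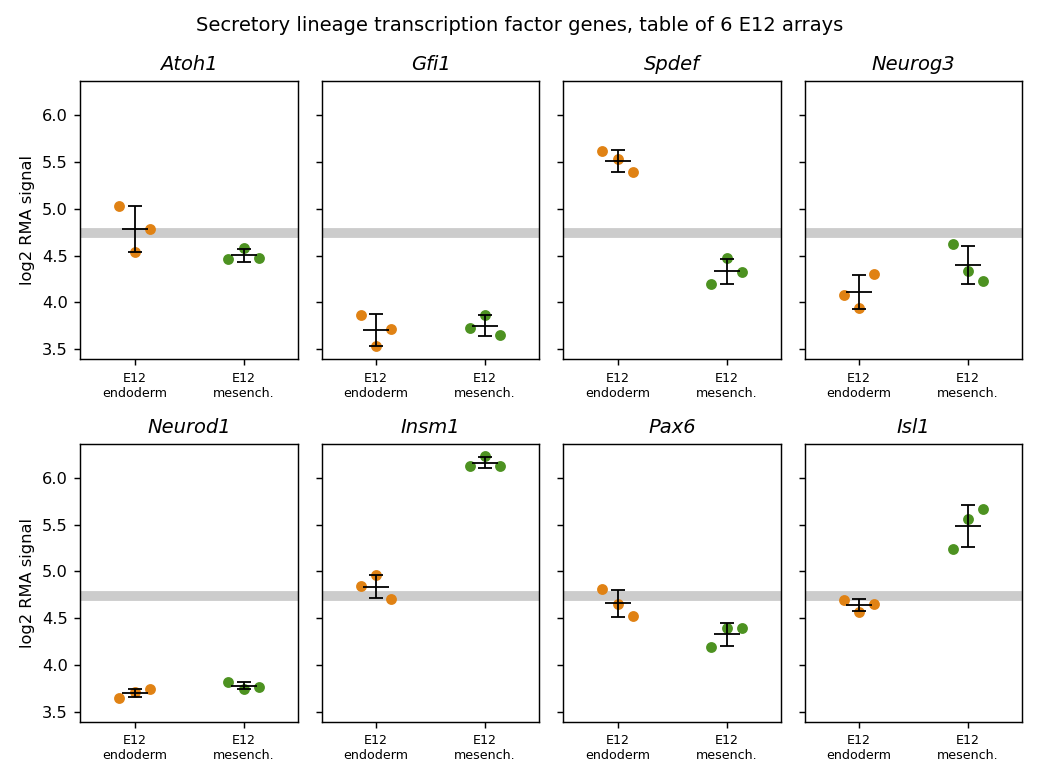
Log2 RMA signal (y axis) of each gene's brightest probe set in the 6 E12 arrays, endoderm left of mesenchyme (x axis), with the mean and SD of 3 arrays; the grey band is the range of the arrays' 30th percentiles, 4.70 to 4.78. Spdef is above the band in endoderm alone, Insm1 sits at 6.13 to 6.23 in mesenchyme, and Gfi1 and Neurod1 stay below the band in both layers.

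**Figure D3:**
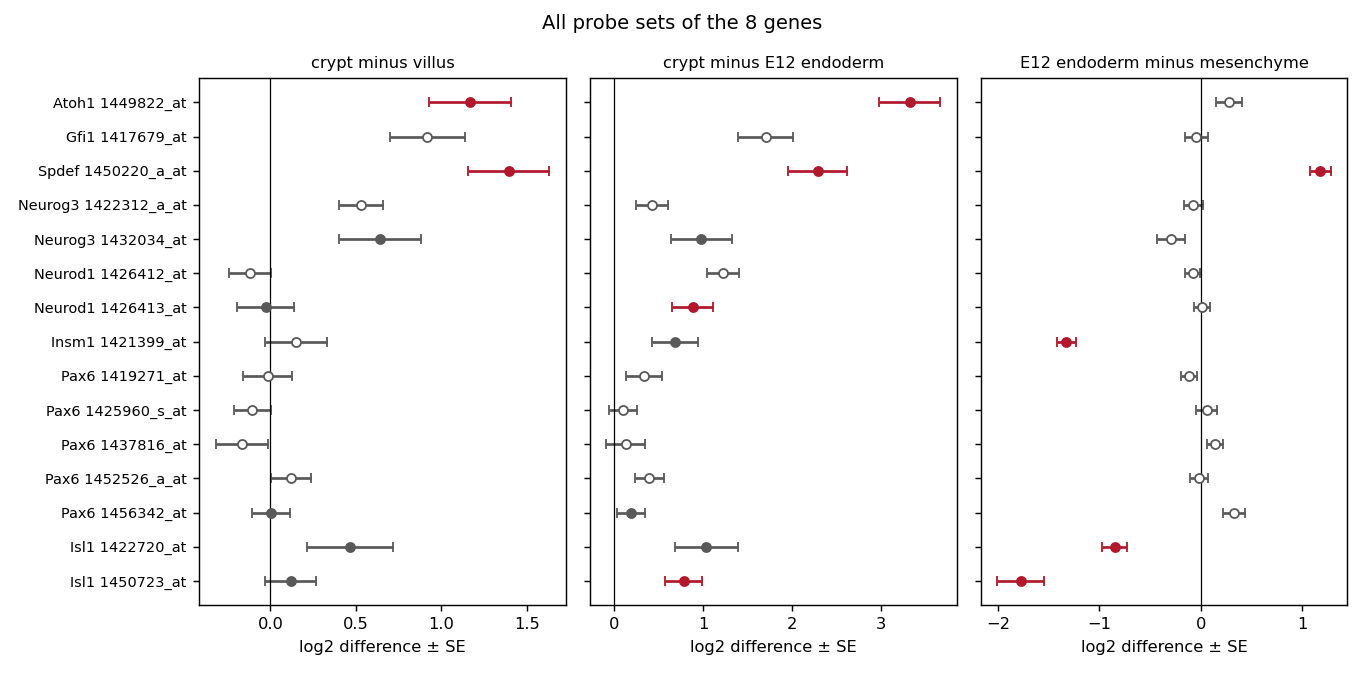
Log2 difference ± SE (x axis) of all 15 probe sets of the 8 genes (y axis) in 3 comparisons, each panel with its own scale, from fits in which every probe set is its own feature. Filled points passed the filter on dim values, and red points had an adjusted p under 0.05. Both Isl1 sets lie left of 0 between the E12 layers, at -0.85 and -1.78, and 4 of the 5 Pax6 sets are open in every panel.

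Marker lists moved between the E12 layers beside Insm1 and Isl1. Over all genes tested, 27.7% were called higher in endoderm and 25.4% lower. Enteric neural genes were lower in endoderm for 12 of 13 tested, with a median of -2.65 against 0.03 over all genes. Among them were Tubb3, a neuronal tubulin dim in endoderm, by at least 21.4-fold, and Ednrb, an endothelin receptor of neural crest cells, at -4.58. Tubb3 and Hand2 were dim in every endoderm array and passed the filter through mesenchyme alone, so their direction follows from the filter. The mean over these 13 genes was 5.47 to 5.49 in endoderm arrays, with 2 to 4 of the genes below the dim level, and 7.96 to 8.03 in mesenchyme arrays, with 0 below. Of 5 pancreas genes tested, Cpa1, a digestive carboxypeptidase, was lower in endoderm at -2.11 and Cela1, an elastase, higher at 0.79. The mean over 8 pancreas genes was 4.71 to 4.80 in endoderm and 4.92 to 4.98 in mesenchyme. The part of these cell types in the Insm1 and Isl1 differences was not tested.

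The secretory and endocrine transcription factors outside the 8 members were taken as a list of 30 genes, of which 24 were on the array. In crypt against villus, 8 of 17 tested were higher and 1 lower, with a median of 0.64, where 15.0% of all genes were called higher and 16.9% lower. Creb3l4, a membrane-bound leucine zipper factor, was dim in every villus array and at least 1.84-fold higher in crypt (measured difference 2.05). It passed the filter through crypt alone, so its direction follows from the filter. Klf4, a zinc finger factor of goblet cells and of differentiated epithelium, was lower by -2.80 (limma adjusted p = 5.05e-05). The other genes called higher were Sox9 (1.83), a factor of crypt base and Paneth cells, Bhlha15 (1.70), Hes6 (1.13), Creb3l1 (1.05), Foxa1 (1.04), Foxa2 (0.86) and Xbp1 (0.79). Foxa1 lost its call when any 1 crypt array was left out (adjusted p = 0.0603 to 0.0847) and Foxa2 without crypt K12 or K21 or villus V12 or V275 (0.0529 to 0.0914). Xbp1, whose probe set is of the same type as that of Spdef, differed by -0.04 when all probe sets of shared types were left out.

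Against E12 endoderm, 7 of 18 tested factors of that list were higher in crypt and 2 lower, with a median of 0.52. Over all genes in that fit, 8.20% were called higher in crypt and 15.1% lower, with a median of 0.05. Mlxipl, a sugar-responsive factor, was higher by 3.05 and Bhlha15, a factor of cells with high secretory output, by 2.59. Creb3l4 and Pou3f4, also called higher, were dim in the E12 endoderm array, so their direction follows in part from the filter. Pou3f4 lost its call after quantile normalization (0.65), among other settings, and Xbp1 without probe sets of shared types (0.35). Foxa1, a pioneer factor of endoderm, was lower by -2.37. Sox4, an SRY-related factor, was lower by -1.02, a call that was lost after quantile normalization (-0.74, adjusted p = 0.0651) and without crypt K21 (-0.97, adjusted p = 0.058). Between the E12 layers 6 of 17 were higher in endoderm and 4 lower, with a median of 0.01, beside 27.7% and 25.4% of all genes. Foxa1 was higher by 7.07, and Runx1t1, a corepressor dim in endoderm, was at least 17.4-fold lower there. Runx1t1 and Myt1 passed the filter through mesenchyme alone, and Mlxipl and Mnx1 through endoderm alone, so their directions follow from the filter.

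**Figure D4:**
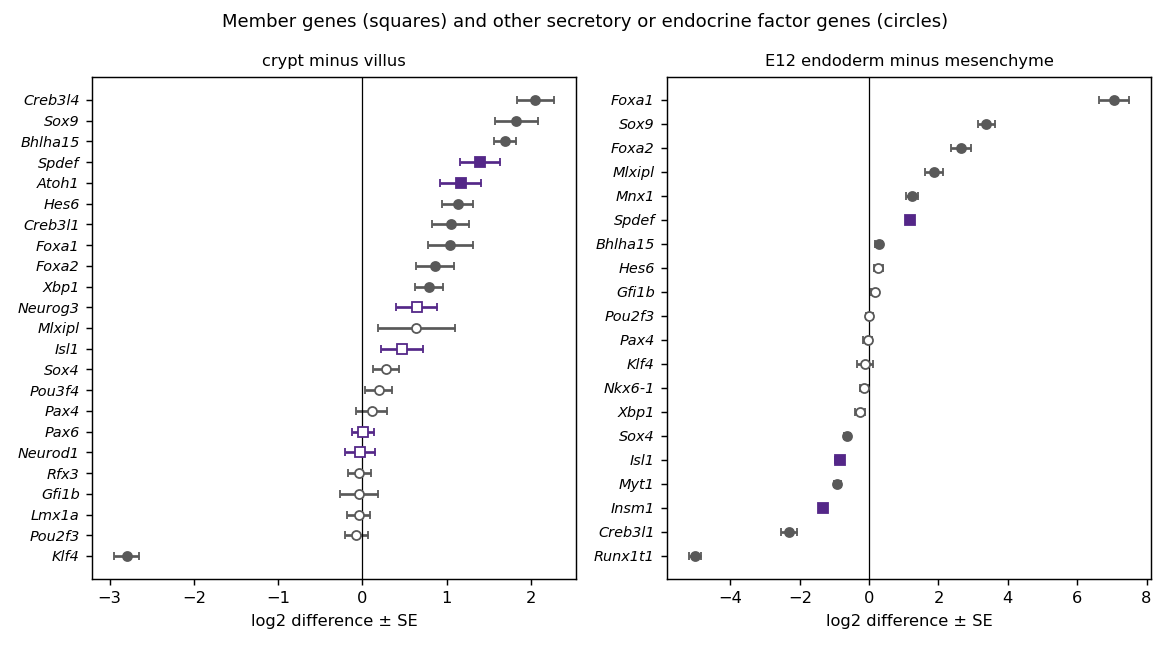
Log2 difference ± SE (x axis) for the tested members (purple squares) and the other secretory or endocrine transcription factors (grey circles), 1 gene a line (y axis), in crypt minus villus (left) and E12 endoderm minus mesenchyme (right). Filled symbols had an adjusted p under 0.05. Differences are as measured, including those against a dim group such as Creb3l4 on the left and Spdef and Isl1 on the right. Spdef at 1.39 and Atoh1 at 1.17 lie below Creb3l4, Sox9 and Bhlha15 among the higher genes on the left, and Klf4 at -2.80 is alone at the lower end.

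Genes of the Notch pathway, the input that holds Atoh1 off, were read from a list of 25 with 24 on the array. Between crypt and villus, 6 of 23 tested were higher and 2 lower, with a median of 0.13, beside 15.0% and 16.9% of all genes. Notch1, a receptor, was higher in crypt by 1.68 (adjusted p = 0.00127), and Numb, an inhibitor of Notch receptors, was lower by -2.15 (adjusted p = 0.000742). Between the E12 layers 1 of 23 was higher in endoderm and 14 lower, with a median of -0.41, beside 27.7% and 25.4% of all genes. Hey1, a Notch target, was lower by -2.16, and Notch4, an endothelial receptor dim in endoderm, was at least 2.98-fold lower. Notch4 and Jag1 passed the filter through mesenchyme alone, so their direction follows from the filter.

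Products of the secretory cells were read from 3 lists. Of all genes tested between crypt and villus, 15.0% were called higher in crypt and 16.9% lower. Paneth cell products were higher in crypt than in villus for 9 of 9 tested, with a median of 3.96, led by Clps at 5.15 and Mptx1 at 4.74. Goblet cell products were mixed, with 6 of 16 higher and 7 lower and a median of 0.19: Ccl9, a chemokine, was higher by 3.60 and Muc3, a membrane mucin, lower by -2.59. Enteroendocrine products were higher for 2 of 20 and lower for 5, with a median of -0.20. Gcg, the glucagon precursor, was higher in crypt by 2.92 (adjusted p = 0.00479), and Nts, the neurotensin precursor, was lower by -2.56 (adjusted p = 0.000739).

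Against E12 endoderm, the same products were mostly higher in crypt. Of all 10081 genes in that fit, 8.20% were called higher in crypt and 15.1% lower, with a median of 0.05. Goblet products were higher for 14 of 16 (median 3.84), among them Guca2a, guanylin, at 6.13 and Spink4, a protease inhibitor, by at least 238-fold. Paneth products were higher for 8 of 9 (median 6.07), among them Lyz1, lysozyme, by at least 349-fold and Itln1, intelectin, by at least 289-fold. Enteroendocrine products were higher for 10 of 20 and lower for 1 (median 1.08), among them Chgb, a granin, by at least 20.9-fold and Gcg by at least 17.5-fold. Spink4, Lyz1, Itln1, Chgb and Gcg were all below the dim level in the lone E12 endoderm array. So were other genes of these lists, such as Clca1, Ccl9, Cck and Tac1. Such genes passed the filter through other arrays, so their higher signal in crypt follows in part from the filter. Counts and medians that include them are a description. Between the E12 layers, 9 of 13 enteroendocrine genes tested were lower in endoderm and 1 higher, with a median of -1.10, beside 25.4% and 27.7% of all genes. Cpe, a prohormone-processing enzyme also found in neurons, was lower by -2.21 and Scg3, another granin, by -2.17. Scg5 and Nts were dim in every endoderm array and passed the filter through mesenchyme alone, so their direction follows from the filter.

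The genes whose profile over the 8 arrays was nearest to each called member were found by the root mean square (RMS) log2 distance after centring each gene, among 10081 genes. Nearest to Atoh1 were Hgfac, a serine protease (RMS 0.34), Tspan1, a tetraspanin (0.48), and Lrrc26, a subunit of potassium channels (0.48), against a spread of 1.69 (SD) of Atoh1 itself over the arrays. Nearest to Spdef were Rab3d, a GTPase of secretory granules (0.18), Galnt4, which starts O-linked glycans (0.21), and Ces1c, an esterase (0.26), with a spread of 1.19 for Spdef. Nearest to Neurod1 were Capn8 (0.08), a calpain, Helb (0.10), a DNA helicase, and Il17rb (0.10), a cytokine receptor, with a spread of 0.41 for Neurod1. Rab3d was higher in crypt than in villus by 1.71 (adjusted p = 0.00117) and Galnt4 by 1.23 (adjusted p = 0.00197), beside 1.39 for Spdef. Hgfac was higher in crypt by 1.15 (adjusted p = 0.00132), beside 1.17 for Atoh1. These genes share arrays and group differences with the members by choice, so their likeness is a description.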

How the data were processed

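Total RNA was measured on single-colour arrays. The deposited values are log2 signals that the authors made with RMA, per the submitters' processing notes, which list no version. RMA corrects background, normalizes arrays and summarises probes, and it compresses differences between dim signals. Of 22690 probe sets, 20380 had 1 symbol, 691 several, 1555 none and 64 were controls. Symbols came from the platform annotation. Entrez identifiers of 20351 were found in the RefSeq table of GRCm38.p6, used for names only, with 0 updates.

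Each gene took the brightest of its probe sets, by the mean of the fitted arrays, and was tested if above the table's 30th percentile (5.78 and 4.74) in at least 3 arrays. Tests used limma 3.58.1 (R 4.3.3), and p-values were adjusted by Benjamini-Hochberg across every gene tested, with calls at 0.05. Crypt against villus used 6 arrays, adult against E12 endoderm 1 fit of 4 groups over 8 arrays, and the E12 layers 6 arrays. The number of arrays limits precision, and the labels do not say which adult samples share a mouse, so p-values reflect the spread between samples alone. Arrays of a pair shared at most 8 values in the 8-array table, and at most 670 in the E12 table, which is rounded.

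The members and lists were chosen with earlier results of these data known. Named genes were the members, the 2 largest called changes of a list, the marker checks and the 3 nearest profiles. The other called factors of the secretory list, and Sox4, were named after their values were seen.

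Deviations of same-numbered E12 samples correlated at 0.21, 0.23 and 0.11, while the unmatched endoderm 3 and mesenchyme 4 reached 0.13. If the numbers mark pairs, the reported E12 fits leave that pairing out. The reported fits have no replicate block, which was run as an alternative. On simulated data limma recovered 64% of 2-fold changes for crypt against villus (9961 genes, 4.09% false calls) and 99% for the E12 layers (9441 genes, 8.29%). Far fewer genes were changed in the simulations than were called in the data, so these shares may not hold for the data. Alternatives were normalization, filters, probe set rules, the prior, the samples fitted, left-out replicates and a replicate block.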

Additional observations from a re-analysis of the deposited data

How the results depend on the processing

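Of 308 values of member differences under the alternatives, 294 kept their direction and side of the threshold, 3 lost a call, 6 gained one and 5 changed sign. All sign changes were in crypt against villus, among differences that were not called, apart from Xbp1. Pax6 was -0.040 after quantile normalization, and when a replicate was left out it ranged from -0.057 (without crypt K12) to 0.041. Under the same removals Neurod1 ranged from -0.15 to 0.085 (without crypt K41), Capn8 from -0.0080 (without crypt K12) to 0.15, Helb from -0.16 to 0.098 (without crypt K41) and Il17rb from -0.15 to 0.025 (without villus V12). Xbp1 was -0.040 without probe set types whose probes match several transcripts. The cause was not tested.

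The count of genes called in crypt against villus was 3182. It ranged from 1849 (without crypt K21) to 3068 when a replicate was left out. For crypt against E12 endoderm it was 2347, with a range of 1339 (without crypt K21) to 2982. With the replicate block, crypt against villus had 1259 genes called, 424 of them higher, and 1 member called, Spdef (adjusted p = 0.0273), while Atoh1 was 1.10 with an adjusted p of 0.112. Gcg (adjusted p = 0.0527), Xbp1 (0.0526), Foxa1 (0.111) and Foxa2 (0.195) also lost their calls with the block. Only the numbers 12 and 41 are shared there, with deviations correlated at 0.16 and 0.07. The replicate block changed no member call between the E12 layers. Genes called higher in crypt against villus were 1496, but 968 without crypt K12, 827 without crypt K21 and 2246 with each probe set its own feature. For crypt against E12 endoderm they were 827, and 433 without crypt K21.

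Members called in crypt against villus were 1 without probe set types whose probes match several transcripts, since Spdef then had no probe set. Between the E12 layers 0 members were tested or called with a filter at the 50th percentile. Leaving out any E12 replicate left 2 members called, because Spdef or Isl1 then had only 2 arrays above the dim level. Dim signal limits Gfi1, Insm1, the second Neurog3 and Neurod1 sets and most E12 values.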
